A study of Mus musculus with 55 samples.

Results

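The comparison was between dorsal hippocampal libraries that were rich and libraries that were poor in pituitary transcripts. The 43 female libraries with an estrous stage were ranked by their CPM (the counts of a gene over all counts of its library, scaled to a common total) of Gh, the growth hormone gene, and the 10 highest and 10 lowest were taken, so 20 of the 55 libraries of the series entered. The libraries were selected on Gh alone, so Gh was left out of the genes tested, and in the other libraries it served as the level against which genes were set. Gh CPM was 41.5 to 96.8 (median 66.9) in the rich set and 0.185 to 7.16 (median 2.46) in the poor set. The last rich library had 41.5 CPM and the next below it 40.4, and the first poor library had 7.16 CPM and the next above it 9.07.

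Each library came from 1 mouse, either wild type (WT) or Cnih3 knock-out (KO) on the C57/BL6j background. Cnih3 encodes an auxiliary protein of AMPA-type glutamate receptors, and the KO lacks one exon, which shifts the reading frame. The rich set held 5 WT and 5 KO mice aged 10.86 to 19.43 weeks, with 2 in diestrus (Di), 3 in metestrus (Met), 2 in proestrus (Pro) and 3 in estrus (Est). The poor set held 5 WT and 5 KO mice aged 11 to 22.57 weeks, with 6 in Di, 3 in Met, 0 in Pro and 1 in Est. The number of Di mice, the number of KO mice, the mean age and the total counts did not differ between the sets past the threshold. With 10 mice in each set, this does not show that the sets were balanced. Parental cross was not among these tests. The WT mice of each set came partly from WT B6 matings and partly from matings of the Cnih3 line. More of the rich than of the poor WT mice came from WT B6 matings. All KO mice and all Di mice under 14 weeks in the sets came from matings of the Cnih3 line. Di mice under 14 weeks, which these tests did not take as a group, were 2 in the rich and 5 in the poor set. The smallest of these 4 p-values was 0.170 for Di, from Fisher's exact test (two-sided), and 0.679 after Benjamini-Hochberg adjustment over the 4. Total counts were 43052058 to 61472649 in the rich set and 48237786 to 58932939 in the poor set. The tissue was lysed in NP-40 and spun, and RNA was taken from the supernatant. Cnih3 counts over the whole gene were 24.3 to 49.1 CPM in the 10 WT mice and 19.4 to 30.9 CPM in the 10 KO mice, and a count over the whole gene does not test the loss of one exon.

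The anterior pituitary makes growth hormone in somatotropes, prolactin (Prl) in lactotropes, the gonadotropins and thyrotropin from a shared alpha subunit (Cga) with a beta subunit each (Lhb, Fshb, Tshb), and corticotropin from proopiomelanocortin (Pomc). The POU-domain factor Pou1f1 drives Gh, Prl and Tshb, and Six6 and Pitx1 are homeobox factors of the gland. Transcripts of growth hormone, prolactin and Pomc, and several of the receptors, are also known from brain tissue.

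The start regions of the 3 hormone genes on which the comparison turns are shown for context, from 250 bases before to 50 after the RefSeq start in GRCm38.p6, plus strand. The capitals mark TATNCAT on either strand (ATGNATA when read on the other), the core of sites that Pou1f1 can bind. These are chr13:27057320-27057619 for Prl, chr4:34893529-34893828 for Cga and chr12:3954695-3954994 for Pomc.
Prl: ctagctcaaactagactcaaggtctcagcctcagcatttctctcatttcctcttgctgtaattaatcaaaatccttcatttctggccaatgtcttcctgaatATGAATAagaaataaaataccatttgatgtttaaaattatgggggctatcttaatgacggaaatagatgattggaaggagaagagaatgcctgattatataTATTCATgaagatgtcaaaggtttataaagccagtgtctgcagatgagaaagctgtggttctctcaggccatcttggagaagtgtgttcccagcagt
Cga: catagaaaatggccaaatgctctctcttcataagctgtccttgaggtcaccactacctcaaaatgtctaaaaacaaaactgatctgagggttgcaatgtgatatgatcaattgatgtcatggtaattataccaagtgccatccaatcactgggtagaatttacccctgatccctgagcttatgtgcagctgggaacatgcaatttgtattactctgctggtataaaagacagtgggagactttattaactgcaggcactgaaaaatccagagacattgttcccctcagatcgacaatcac
Pomc: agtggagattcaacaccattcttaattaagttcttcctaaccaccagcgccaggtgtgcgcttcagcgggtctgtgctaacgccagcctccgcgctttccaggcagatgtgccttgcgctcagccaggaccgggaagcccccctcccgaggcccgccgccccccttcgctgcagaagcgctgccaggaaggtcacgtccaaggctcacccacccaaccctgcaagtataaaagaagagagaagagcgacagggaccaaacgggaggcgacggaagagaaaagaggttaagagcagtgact
The Prl window held 2 matches, and the Cga and Pomc windows held 0. Of all 32851 windows of this length, 8.84% held at least 1 match and 1.5% held 2 or more. A match is a string of letters and was not tested as a binding site.

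Prl (ENSMUSG00000021342, chromosome 13, 27057570 to 27065205) was the only differentially expressed gene (DEG) of 16167 genes tested, at a false discovery rate (FDR) under 0.05, which is 0.00619% of them. It was 25.9 to 132 CPM (median 62.5) in the rich libraries and 0.388 to 8.03 CPM (median 3.23) in the poor ones. All 10 rich libraries lay above all 10 poor libraries. The mean was 70.0 ± 34.1 CPM (SD, n = 10) against 3.84 ± 2.58 CPM (SD, n = 10). The log2 fold change was 4.58 with an SE of 0.43 and an FDR of 1.39e-06 by limma. Prl was also the only gene tested whose 2 sets did not overlap with the rich set higher, which is 0.00619% of the genes tested, and 0 genes (0.0%) did not overlap with the rich set lower. In bulk tissue, more cells of a type and more RNA per cell cannot be told apart.

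Pomc (ENSMUSG00000020660, chromosome 12, 3954951 to 3960642) was 5.04 to 34.6 CPM (median 15.5) in the rich libraries and 2.76 to 6.81 CPM (median 4.40) in the poor ones. In 8 of 10 rich libraries Pomc was above every poor library, and 2 rich libraries lay within the poor range. Its log2 fold change was 1.46 with an SE of 0.34 and did not pass the threshold, with an FDR of 0.0591 by limma. When stage and genotype were in the model, Pomc passed with a log2 fold change of 2.17 and an FDR of 0.00698. Prl and Pomc were then the 2 DEGs, 0.0124% of the genes tested. Pomc and Prl did not keep one ratio among the rich libraries, where Pomc counts per Prl count ran from 0.0551 to 1.21 with a median of 0.18.

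**Figure D1:**
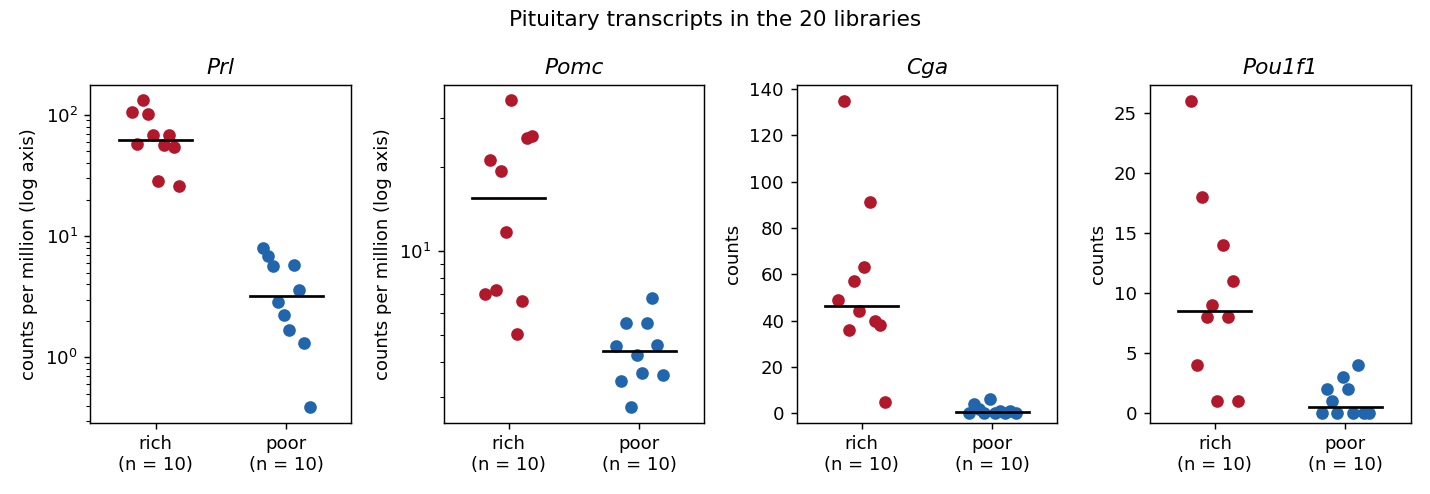
Values of 4 pituitary transcripts in each of the 10 rich and 10 poor libraries, in CPM on a log axis (Prl, Pomc) or in counts (Cga, Pou1f1). Each point is 1 library and the bar is the median. Prl does not overlap between the sets, and Cga is at 5 to 135 counts in the rich and 0 to 6 in the poor libraries.

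The other hormone genes were below the filter of 1 CPM in at least 10 of the 55 libraries, so they were tested only in a fit without that filter. Cga (chromosome 4, 34893779 to 34907370), the shared alpha subunit, had 5 to 135 counts (median 46.5) in the rich libraries and 0 to 6 counts (median 0.5) in the poor ones. In 9 of 10 rich libraries Cga was above every poor library. Its log2 fold change was 5.16 with an SE of 0.62 and an FDR of 0.000237 by limma. Cga and Prl were the 2 genes that passed among 41797 without the filter, which is 0.00479% of them. Fshb, the beta subunit of follicle-stimulating hormone, had 25 counts over 4 rich libraries and 0 counts in all 10 poor libraries. Against the floor of 3 counts over the poor set, the pooled rich counts gave a bound of 8.56-fold higher, while the FDR of Fshb was 0.231 by limma. Such a bound leaves out the counting error of the rich set and the spread between mice. Of the 25 counts, 14 were in the library of mouse 12_5, and without it the bound was 4.22-fold. Tshb, the beta subunit of thyrotropin, had 7 to 71 counts in the rich and 4 to 47 in the poor libraries, with an FDR of 0.480 by limma. Lhb, the beta subunit of luteinizing hormone, was listed at 0 in all 20 libraries.

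The transcript estimates gave more detail on these hormones. Of the estimated Tshb counts, the intron-retaining transcript Tshb-204 held 121 in the rich and 97.4 in the poor libraries. The coding transcripts Tshb-205 and Tshb-206 held 8.82 and 8.48 in the rich libraries and 1.61 and 0 in the poor ones. For Prl, the coding transcript Prl-202 held 6854 estimated counts over the rich libraries and 0 over the poor ones, and Prl-203 held 0 over the rich and 424 over the poor ones. Prl-201 was present in both sets, with 7389 and 401. Prl had 37010 gene counts over the rich and 2075 over the poor libraries, so the estimates rest on unequal numbers of reads. The split between these transcripts was not tested and is not read as a change of transcript.

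Of the 14 pituitary transcription factors, only Gata2 passed the filter, with a log2 fold change of 0.16 and an FDR of 0.738 by limma. The others were below it, most of them at a few counts per library. Six6 had 1 to 20 counts (median 6) in the rich and 0 to 4 counts (median 0) in the poor libraries, and was above every poor library in 8 of 10. Its FDR without the filter was 0.0637 by limma, with a log2 fold change of 2.91 ± 0.50 (SE). Pou1f1 had 1 to 26 counts (median 8.5) in the rich and 0 to 4 (median 0.5) in the poor libraries. Its log2 fold change was 2.83 ± 0.58 (SE) with an FDR of 0.226 by limma. Pitx1 (0 to 25 against 0 to 5 counts) had a log2 fold change of 1.85 and an FDR of 0.236 by limma. Lhx3, Lhx4, Tbx19, Neurod4, Nr5a1, Pax7, Hesx1 and Six3 had at most 59 counts in any of the 20 libraries, with FDRs of 0.323 to 0.998 by limma.

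Of the 8 pituitary receptors, 4 passed the filter and none was a DEG by limma, with log2 fold changes of 0.54 for Avpr1b (vasopressin), 0.36 for Drd2 (dopamine), 0.28 for Crhr1 (corticotropin-releasing hormone) and 0.08 for Sstr2 (somatostatin). None of the 4 had an unadjusted p under 0.05 in this fit. Gnrhr, the gonadotropin-releasing hormone receptor, had 22 counts over 5 rich libraries and 0 in the poor set, with an FDR of 0.226 by limma. Against the floor of 3 counts over the poor set, its pooled rich counts gave a bound of 7.53-fold higher, with the same limits as for Fshb. Of the 22 counts, 10 were in the library of mouse 10_1, and without it the bound was 4.65-fold. Ghrhr, Trhr and Sstr5 were at 0 to 36 counts in both sets. Taking hormones, factors and receptors below the filter, 20 genes had a count, of which 1 (Cga) was a DEG and 9 had an unadjusted p under 0.05 in the higher and 0 in the lower direction. Without the filter, 3099 of 41797 genes had an unadjusted p under 0.05 in the higher direction. Most of the 20 were near 0 counts in the poor set, so these counts are a description.

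The same relation was then tested in libraries that the ranking had left out of both sets. The 23 females between the sets were 12 WT and 11 KO mice of 12 to 23.43 weeks, with 4 in Di, 9 in Est, 3 in Met and 7 in Pro. The 12 males were 5 WT and 7 KO mice of 12 to 23.71 weeks. In the 23 females between the sets, Prl rose by 0.82 log2 units per log2 unit of Gh, with an SE of 0.083 and an FDR of 6.13e-06 by limma with stage and genotype in the model. It was the 1 DEG, 0.00619% of the genes tested. Pomc had a slope of 0.70 with an SE of 0.17 and an FDR of 0.529. In the 12 males, which were never ranked, 0 genes (0.0%) passed by limma or by edgeR, and 691 by limma and 509 by edgeR had an unadjusted p under 0.05. The higher of these by limma were 2.24% of the genes tested. The Prl slope in males was 0.73 with an SE of 0.15, an unadjusted p of 0.000117 and an FDR of 0.931 by limma.

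Across the 12 males, Prl and Gh log2 CPM had a Pearson r of 0.819 (permutation p = 0.00038, two-sided, 0.00076 adjusted over 4 relations) and a Spearman rho of 0.902 (permutation p = 0.00024, 0.00076 adjusted). Without the 2 males farthest from the median Gh, r was 0.785 over 10 males, and within the 7 KO males it was 0.775, while the 5 WT males were too few. Pomc had an r of 0.467 (permutation p = 0.117, 0.154 adjusted) and a rho of 0.441 (permutation p = 0.154, 0.154 adjusted) with Gh, and an r of 0.244 without the same 2 males.

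**Figure D2:**
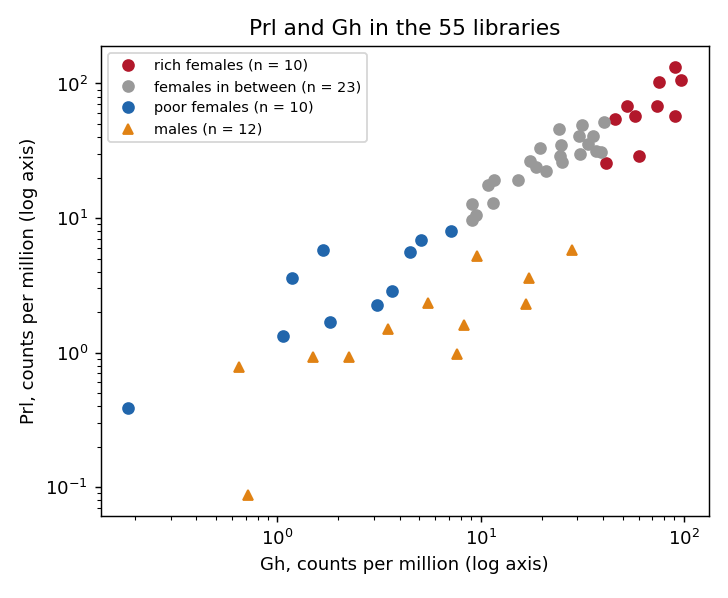
Prl against Gh in CPM on log axes in all 55 libraries, 1 point each. Prl is 25.9 to 132 CPM in the rich, 0.388 to 8.03 CPM in the poor and 0.0875 to 5.78 CPM in the male libraries. The rich and poor sets were chosen by the x axis.

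Beyond Prl, no gene passed the threshold by limma, while 4472 genes had an unadjusted p under 0.05, of which 2676 (16.6% of the genes tested) were higher and 1796 (11.1%) lower in the rich set. The FDR of the next 533 genes after Prl lay just above the threshold, under 0.06. A group of libraries was unequal between the sets. Of the 20 libraries, 7 were from Di mice under 14 weeks, with 2 in the rich and 5 in the poor set. Their Malat1, a nuclear long non-coding RNA, was 191 to 379 CPM, against 591 to 2087 CPM in the other 13. The group was drawn after these Malat1 values were seen, so this separation is a description and not a test. With stage and genotype in the model, 520 genes had an unadjusted p under 0.05, and with a term for these 7 libraries, chosen after seeing the data, 924. Without the 7 libraries, Prl was again the only DEG, with a log2 fold change of 3.91 and an FDR of 0.000278 by limma, and Pomc had a log2 fold change of 1.47 and an FDR of 0.956. The part of these libraries in the other differences was not tested.

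The 9 genes after Prl with the smallest FDR in the higher direction, all at an FDR of 0.0591 by limma, had log2 fold changes of 0.44 to 0.75. They were Cntnap1, a protein of the axonal paranode, the adhesion molecules Opcml, Nrcam and L1cam, the N-type calcium channel subunit Cacna1b, and Myadml2, Sidt1, Cds2 and Prtg. Cntnap1 was 25.4 to 41.8 CPM (median 37.4) in the rich and 19.4 to 35.3 CPM (median 25.0) in the poor libraries, and the 2 rich libraries of young Di mice lay within the poor range. Under stage and genotype terms these 9 genes had log2 fold changes of 0.19 to 0.57 and none was a DEG by limma. None of the 9 had an unadjusted p under 0.05 against Gh in the males. In the 23 females between the sets, Opcml (slope 0.10, unadjusted p of 0.0397 by limma) and Cacna1b (slope 0.13, unadjusted p of 0.0438 by limma) did, both with an FDR of 0.707.

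The 10 genes with the smallest FDR in the lower direction had log2 fold changes of -0.74 to -0.23, none a DEG by limma. They were Kri1, Atpsckmt, the kinase gene Camk1g, the circadian repressor Nr1d1, Fastkd3, Tom1, Ociad2, Vta1, the replication factor Cdc45 and Ap5s1. Kri1 was 3.21 to 5.96 CPM (median 5.06) in the rich and 5.02 to 12.3 CPM (median 7.24) in the poor libraries. Its log2 fold change was -0.74 with an SE of 0.15, and 7 of 10 poor libraries lay above every rich one.

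**Figure D3:**
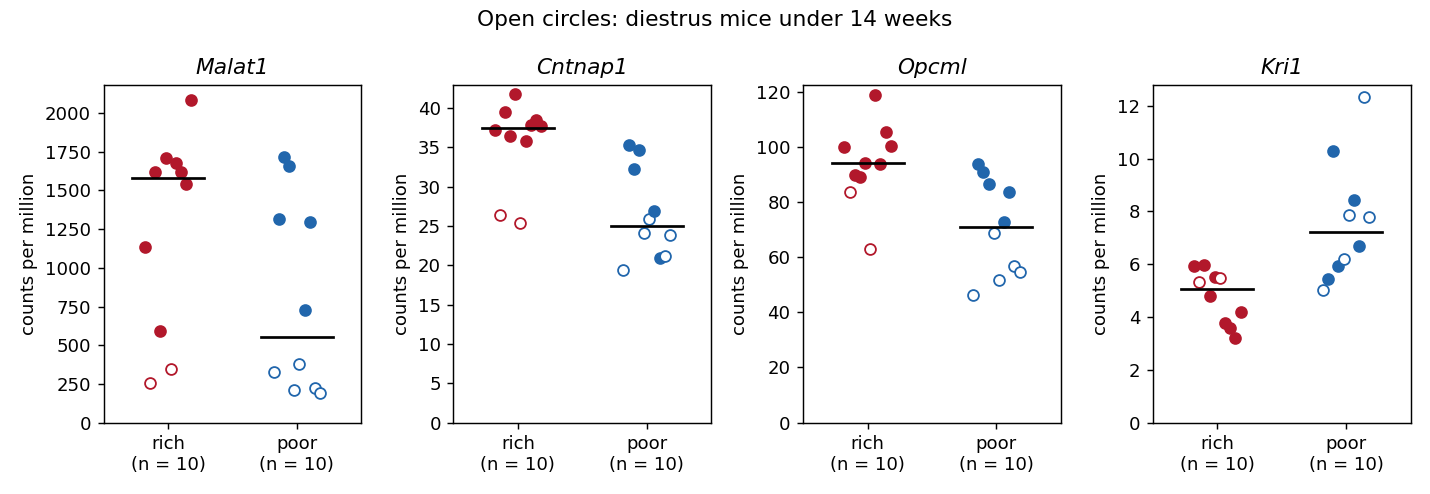
CPM of Malat1, Cntnap1, Opcml and Kri1 in each rich and poor library, with the median as a bar. Open circles are the 7 Di mice under 14 weeks, which hold the lowest Malat1 values (191 to 379 CPM) and most of the low Cntnap1 and Opcml values. This group was drawn after the Malat1 values were seen.

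Lists of marker and pathway genes are given by how many members had an unadjusted p under 0.05, and 0 members outside the pituitary hormones were DEGs by limma. Against 16.6% higher and 11.1% lower of all genes, with a median log2 fold change of 0.02, the nuclear long non-coding RNAs had 7 of 8 higher and a median of 1.01. Among them Miat had a log2 fold change of 1.51, Meg3 of 1.48, Snhg11 of 1.17, Malat1 of 1.20 and Neat1 of 0.85. With stage and genotype in the model the median of the list was 0.04, and 0 of 8 had a p under 0.05.

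Glutamate receptors and AMPA receptor auxiliary proteins had 13 of 16 members higher and 0 lower, with a median of 0.39. Grin1, the obligatory NMDA receptor subunit, was 15.9 to 50.3 CPM (median 36.7) in the rich and 13.0 to 47.3 CPM (median 20.8) in the poor libraries, and the sets overlapped. Grm5, a metabotropic receptor, and Gria2, an AMPA receptor subunit, had log2 fold changes of 0.53 and 0.54. With stage and genotype in the model the median was 0.12 and 0 members had a p under 0.05. Two-way adjustment was not the only fit, and 2 others were chosen after seeing the data. With a term for Di mice under 14 weeks, 8 of 16 were higher, against 645 of all 16167 genes. For the slope on Gh over all 43 females with stage and genotype, 8 of 16 were positive, against 1200 of all genes. In the 23 females between the sets, 0 were positive and 1 negative. In the 12 males, 1 was positive and 0 negative. Cnih3 itself had a log2 fold change of 0.28 with an FDR of 0.129 by limma.

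Oligodendrocyte precursor markers had 7 of 9 higher and 1 lower (median 0.49), among them Pdgfra (0.46), Olig2 (0.49), Tnr (0.60) and Cspg4 (0.54). Mature oligodendrocyte markers had 9 of 15 higher and 0 lower (median 0.38), led by the myelin genes Myrf (0.62), Mal (0.46), Cldn11 (0.55) and Mag (0.71). In the model with stage and genotype the medians were 0.15 and -0.01, and 1 of 9 and 0 of 15 were higher, against 1.99% of all genes higher and 1.23% lower. In the 23 females between the sets, slopes on Gh were read at an unadjusted p under 0.05. Of all genes, 3.98% had a positive and 3.03% a negative slope there. Of the markers, 2 of 9 precursor and 9 of 15 mature oligodendrocyte markers had a positive slope at that p. Their median slopes were 0.12 and 0.15, with 0 DEGs among them by limma. In the 12 males, 0 of 15 mature markers had a positive and 2 a negative slope at that p (median slope -0.04). Of the 9 precursor markers, 1 had a positive and 0 a negative slope in the males (median slope -0.01). The share of all genes with a positive slope in the males was 2.24%.

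Secretory granules store peptide hormones in endocrine cells and neurons. Of 14 tested members of the secretory granule and prohormone processing list, 8 were higher and 0 lower (median 0.29), among them the processing enzymes Cpe (0.22), Pam (0.71) and Pcsk2 (0.35) and the granule protein gene Vgf (0.36). Cpe was 763 to 1288 CPM in the rich and 742 to 1002 CPM in the poor libraries, so these genes were abundant in both sets. Under the model with stage and genotype the median was 0.03 and 0 members had a p under 0.05. Endoplasmic reticulum chaperones had 9 of 14 higher (median 0.29), led by Hsp90b1 (0.46), Calr (0.45), Hyou1 (0.52) and Canx (0.30), and a median of 0.04 with stage and genotype.

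For the targets of the hormones, the shares were read against the 16.6% of all genes that were higher. Of 12 tested members of growth hormone and prolactin signalling, 2 were higher and 0 lower (median 0.04), with log2 fold changes of 0.34 for Igfbp5, 0.83 for Socs3, 0.13 for Jak2 and 0.09 for Ptpn11. Among hormone receptors 3 of 12 were higher (median 0.05), with 0.61 for the insulin receptor Insr, 0.40 for the growth hormone receptor Ghr and 0.29 for Igf1r. With stage and genotype in the model, 1 of the 12 signalling genes was higher and 0 lower (median 0.03). For the hormone receptors, 0 of 12 then had an unadjusted p under 0.05 in either direction (median 0.03). The prolactin receptor Prlr was 1.86 to 5.25 CPM in the rich and 1.72 to 17.9 CPM in the poor libraries, with a log2 fold change of -0.04 and an FDR of 0.934 by limma.

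Tissues that lie near the pituitary or the hippocampus were looked at by their markers. All 14 hypothalamic markers were below the filter, with summed levels of 1.08 to 4.99 CPM in the rich and 0.793 to 3.13 CPM in the poor libraries, and Kiss1 at 0 in all 20. Choroid plexus markers had 0 of 12 higher and 2 lower, with a median of -0.28 that was 0.21 with stage and genotype in the model. Their summed level was 132 to 761 CPM in the rich and 115 to 1185 CPM in the poor libraries. The direction varied with the libraries used, with a median of -1.70 in WT mice only and 0.10 in KO mice only. In the 23 females between, the median slope of these 12 on Gh was 0.83, with 1 positive and 0 negative at an unadjusted p under 0.05. Ttr, which carries thyroid hormone, had a log2 fold change of -1.39, Aqp1 of -1.83, Folr1 of -1.32 and the factor Otx2 of -0.86, none a DEG by limma, and of these Aqp1 and Otx2 had an unadjusted p under 0.05. Ependymal markers had 2 of 6 higher (Foxj1 0.81, Ccdc153 0.70) and meningeal markers 0 of 8, with summed meningeal levels of 297 to 1242 and 234 to 1184 CPM. Blood markers had 0 of 5, with summed levels of 150 to 1184 CPM in the rich and 142 to 459 CPM in the poor libraries. In the 23 females between, 4 of these 5 had a positive slope on Gh at an unadjusted p under 0.05, against 3.98% of all genes. In the 12 males, 0 of the 5 had a slope at that p in either direction (median slope -0.02). Thalamic markers had 0 of 9 higher and 1 lower (Tnnt1, -0.60), and striatal markers 0 of 6 in either direction. Their part in the result was not tested.

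**Figure D4:**
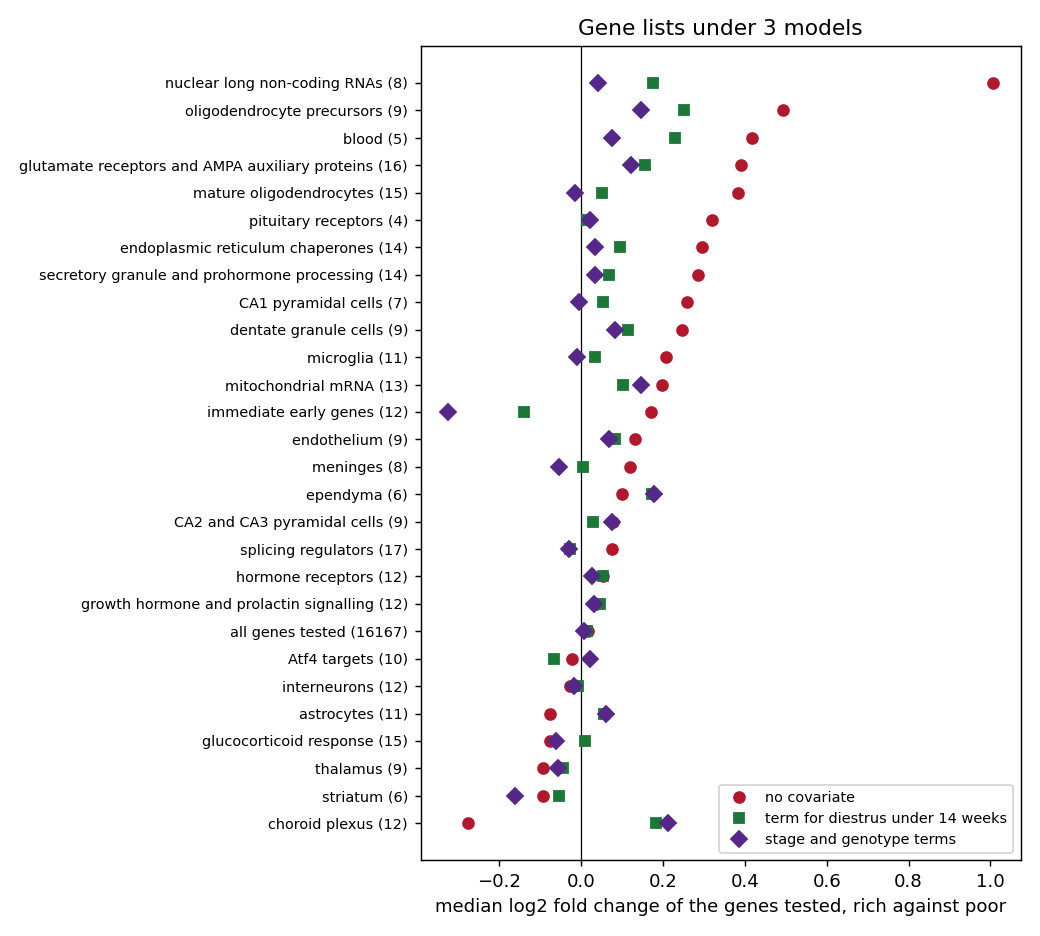
Median log2 fold change, rich against poor, of the genes tested in each list with at least 4 tested genes, under a model with no covariate (circles), with a term for Di mice under 14 weeks (squares) and with stage and genotype terms (diamonds). The nuclear long non-coding RNAs have the highest median with no covariate, 1.01, and 0.04 with stage and genotype.

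Markers of the hippocampal cell types were mixed. Counts here are at an unadjusted p under 0.05, against 16.6% of all genes higher and 11.1% lower. Under stage and genotype terms these shares were 1.99% and 1.23%. For slopes on Gh in the 23 females between the sets they were 3.98% positive and 3.03% negative. Dentate granule cell markers had 6 of 9 higher (Npnt 0.49, C1ql2 0.78), CA1 markers 3 of 7 (Wfs1 0.56, Man1a 0.47), and CA2 and CA3 markers 3 of 9 higher and 1 lower (Nectin3 0.31, Rgs14 -0.25). Astrocyte markers had 1 of 11 higher and 3 lower (Slc1a3 0.19, Aldh1l1 -0.49, Gfap -0.46, Ndrg2 -0.42), and microglial markers had 5 of 11 higher (Csf1r 0.32, Tmem119 0.29). Of these lists, dentate granule cells kept 2 of 9 higher under stage and genotype terms, while CA1, CA2 and CA3 and microglia had 0 in either direction (medians -0.0042, 0.07 and -0.01). Astrocyte markers then had 1 higher and 0 lower, and their median went from -0.07 to 0.06. Interneuron markers had 1 of 12 higher and 2 lower (Slc32a1 0.49, Gad1 -0.18). Endothelial markers had 0 in either direction. Glucocorticoid response genes had 0 of 15 in either direction, and 2 lower under stage and genotype terms. Of these genes, 6 had a negative slope on Gh in the 23 females between the sets (median slope -0.14). In the 12 males, 0 of the 15 had a slope at that p in either direction (median slope 0.02). Immediate early genes had 2 of 12 higher (Dusp1 0.45, Btg2 0.21), which is close to the share of all genes. Their median was 0.17, and -0.32 with stage and genotype, where 5 were lower. In the 23 females between, 6 of 12 had a negative slope on Gh (median slope -0.21). Among the males, 0 of these 12 genes had a slope at that p in either direction (median slope -0.05). Splicing regulators had 6 of 17 higher (Luc7l2 0.73), mitochondrial mRNAs 2 of 13 (mt-Co3 0.38) and Atf4 targets 3 of 10 lower (Asns -0.24). Under stage and genotype terms these were 0 of 17, 1 of 13 and 1 of 10.

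The contrast was then taken within each genotype. In the KO mice, where 2 of 5 rich and 2 of 5 poor libraries were from Di mice under 14 weeks, 1 DEG was called (Prl, log2 fold change 4.44). In the WT mice, where these were 0 of 5 rich and 3 of 5 poor libraries, 5495 DEGs were called, of which 3089 were higher, and Prl had a log2 fold change of 4.89. The test of the difference between genotypes called 0 genes (0.0%) by limma, with 3295 at an unadjusted p under 0.05 and 0 by limma without quality weights. In that test the Prl difference was -0.45 (KO minus WT) with an SE of 0.91. Among the WT mice, the rich libraries were 3 in Est and 2 in Met, and the poor ones 3 in Di and 2 in Met. The parental cross was also unequal between them. Genotype, stage, parental cross and the share of young Di mice in the sets cannot be told apart in these counts.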

How the data were processed

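Dorsal hippocampal RNA of 55 mice was sequenced with 1 library per mouse. The authors aligned reads to GRCm38 with STAR 2.7.9a and deposited raw gene counts from featureCounts 2.0.3, transcript values as estimated counts from Salmon 1.5.2 and a log2 CPM table of the genes they tested. The deposited counts were the source of the tests, the transcript estimates were only listed, and the authors' log2 table only gave the genes they left out. The kit does not mark strand, so overlapping genes cannot be told apart. Of the columns, 1 had no sample and was not used. Dropping 287 repeated lines left 55487 genes.

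Genes over 1 CPM in at least 10 of the 55 libraries were kept, without 5 ribosomal genes and Gh, which gave 16167. TMM factors, voomWithQualityWeights and empirical Bayes were run in limma 3.58.1 and edgeR 4.0.16 under R 4.3.3, with Benjamini-Hochberg FDR and a threshold of 0.05. DESeq2 1.42.0 and edgeR's quasi-likelihood test were alternatives. Slopes used log2 Gh CPM with a pseudocount of 0.5 counts. Permutation tests drew 100000 resamples. The steps were tested on simulated data. The p-values measure the spread between mice, and floors cover only the counting error of the poor set.

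Named genes were Prl and Pomc, the pituitary lists, the 10 smallest FDRs in each direction (ties by p), up to 4 members of every other list with the smallest FDR, and Cnih3, Prlr, Ghr and Otx2. Malat1, Lhb, Ruvbl2, Gm18227 and Gm39307 were chosen after their values were seen. Of the genes this rule names, 4 are not reported here. The sets and lists were chosen with earlier results of these data known.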

Additional observations from a re-analysis of the deposited data

Results flagged for a closer look

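Cga in the rich libraries had 1 library, from mouse 3_2, far below the other 9. Its gap to the next was 0.612 of the range on the log2 scale, at -3.17 log2 CPM against -0.32 to 1.49. Prtg in the poor libraries had 1 library, from mouse 12_1, below the others, with a gap of 0.496 of the range, at 0.44 log2 CPM against 1.44 to 2.45. These are 2 of 58 sets of 10 looked at, and chance flags about 1 in 20. The same library 12_1 had the highest summed level of striatal markers, 320 CPM, against at most 114 CPM in the other 19.

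Lhb was at 0 gene counts in all 20 libraries, but the transcript estimates, which the comparisons did not use, gave Lhb-201 34.1 estimated counts over 8 of 10 rich libraries and 4.86 over 2 of 10 poor ones. Lhb (chromosome 7, 45420820 to 45421897, plus strand) overlaps Ruvbl2 (45421760 to 45438096, minus strand). Whether the overlap bears on the gene counts was not tested.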

How the results depend on the processing

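Prl passed the threshold under every alternative run for the rich and poor sets. Its log2 fold change was 4.23 to 4.83 when each library was left out in turn. Pomc kept its direction (1.35 to 1.68) and passed in 8 of these 20 fits. Those 8 were the fits in which 1042 to 2809 genes passed, and Pomc had a log2 fold change of 1.36 to 1.52 in them. Passing there was therefore not particular to Pomc. The number of DEGs was 2 with edgeR, 6 with DESeq2 (Prl, Pomc, Kri1, Atpsckmt, Gm18227 and Gm39307), 2 without the filter, 2 with stage and genotype, 5495 in WT mice only and 3991 for a slope on Gh over all 43 females. It ran from 1 to 2809 when each library was left out. It stayed at 1 in 12 of the 20 fits, and was 1090 without 10_1, 1199 without 12_1, 1843 without 2592, 2809 without 3_3, 2593 without 5_1, 2207 without 532, 2102 without 644 and 1042 without 7_2. Among alternatives chosen after seeing the data, it was 3 for the slope with stage and genotype and 2 with a term for Di mice under 14 weeks. In the males it was 1 without the filter, and 0 to 6 when each male was left out, with 6 without 2589. In the 23 females between it was 4 without the filter. The cause was not tested. Ranking by TMM-scaled CPM gave the same 10 and 10 libraries. Of 1942 values of named genes under other settings, 0 of those called in either fit changed sign and 123 called in neither did. No paired analysis was run, because each library came from a different mouse and the sets were formed by Gh rank.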

Other observations

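Prl per Gh differed between the sexes, in a comparison chosen after seeing the data. The mean log2 ratio of Prl to Gh counts was 0.26 ± 0.53 (SD, n = 43) in females and -1.72 ± 1.03 (SD, n = 12) in males, a difference of 1.97 (permutation test, two-sided, p = 2e-05, the smallest these permutations can give, 6e-05 adjusted over 3 genes). Of the males, 9 of 12 lay below every female. The difference was 2.08 within KO and 1.81 within WT mice. Pomc per Gh had a difference of -1.07 (permutation p = 0.0543, 0.0814 adjusted) and Cga per Gh of -0.35 (permutation p = 0.457, 0.457 adjusted).

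Among the genes lower in the rich set, Kri1, Gm18227 and Gm39307 lie on chromosome 9, from 21273457 to 22263289. Gm39307 had 1 to 16 counts in all 10 rich libraries. In the poor libraries it had 0 to 12 counts in 4 and 75 to 235 counts in 6. Those 6 were all from matings of the Cnih3 line. Libraries from WT B6 matings, in both sets, had 4 to 12 counts of Gm39307. Rich libraries from matings of the Cnih3 line were also low, at 1 to 16 counts. The part of the parental cross was not tested. Gm18227 had 3 to 52 counts in the rich and 31 to 298 counts in the poor libraries, with 7 of 10 above every rich library in CPM. Outside the 20 libraries, the 12 males also spread widely, from 0.0242 to 6.62 CPM of Gm39307, and its slope on Gh there was 0.11 with an unadjusted p of 0.778 by limma.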
